A study of Mus musculus with 6 samples.

Results

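The transcripts described here are the repressors of the circadian clock that belong to the PER, CRY and DEC arm: Per1, Per2, Per3, Cry1, Cry2, Ciart, Bhlhe40 and Bhlhe41. They were found in the deposited intensity table by the symbols PER1, PER2, PER3, CRY1, CRY2, GM129 (an older name of Ciart), BHLHB2 (Bhlhe40) and BHLHB3 (Bhlhe41), which gave 14 of its 45281 probes for 8 genes. The study contrasted a time of high with a time of low Arntl expression: total RNA of mGLUTag cells was taken 4 h (n = 3) or 16 h (n = 3) after synchronization and read on 6 arrays, 1 for each sample. The mGLUTag line is an immortalized murine model of the enteroendocrine L-cell, derived from a tumor of a transgenic mouse, and secretes glucagon-like peptide-1. All samples had been starved in low serum, exposed to forskolin, which raises cAMP, and returned to growth medium, so time is the only difference that the labels give between the groups, and no unsynchronized sample was analysed here. Whether the 3 samples of a time came from separate cultures is not stated, so the p-values measure only the spread between these samples, which may be technical.

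In the mammalian clock, the activators BMAL1 (encoded by Arntl) and CLOCK bind E-boxes and switch on genes that then act against them. PER and CRY proteins form complexes that enter the nucleus and silence the activators, CIART (also called CHRONO) binds BMAL1 and represses it, and the DEC proteins BHLHE40 and BHLHE41 compete for E-boxes and recruit repressors there. Per1 is also an immediate target of cAMP signaling through a cAMP response element (CRE). In many peripheral tissues Per transcripts cycle roughly in antiphase to Arntl.

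The promoters were examined first, because E-boxes are how the activators reach these genes. RefSeq promoter windows (assembly GRCm38.p6, from 250 bases before to 50 after an annotated start) were found for 6 of the 8 genes (not Per2 and Bhlhe40), with 7 windows in all since Per1 has more than 1 listed start. The 250 upstream bases of Ciart, Per1 and Cry2, which were detected on the arrays and have a window, are printed 5′ to 3′, with matches to the canonical E-box CACGTG, to its variant CACGTT and to the CRE core TGACG, each on either strand, in capitals.
Ciart, chr3:95882229-95882478, minus strand: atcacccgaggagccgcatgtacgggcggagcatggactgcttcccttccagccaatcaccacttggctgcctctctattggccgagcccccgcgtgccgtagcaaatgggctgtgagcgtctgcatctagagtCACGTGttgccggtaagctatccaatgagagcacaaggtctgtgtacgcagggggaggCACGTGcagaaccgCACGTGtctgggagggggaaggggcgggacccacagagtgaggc
Per1, first start, chr11:69098699-69098948, plus strand: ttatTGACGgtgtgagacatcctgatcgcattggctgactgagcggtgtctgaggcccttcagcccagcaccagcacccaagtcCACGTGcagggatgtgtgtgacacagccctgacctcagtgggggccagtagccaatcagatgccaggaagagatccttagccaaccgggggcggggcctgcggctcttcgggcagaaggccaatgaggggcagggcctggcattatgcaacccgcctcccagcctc
Per1, second start, chr11:69099902-69100151, plus strand: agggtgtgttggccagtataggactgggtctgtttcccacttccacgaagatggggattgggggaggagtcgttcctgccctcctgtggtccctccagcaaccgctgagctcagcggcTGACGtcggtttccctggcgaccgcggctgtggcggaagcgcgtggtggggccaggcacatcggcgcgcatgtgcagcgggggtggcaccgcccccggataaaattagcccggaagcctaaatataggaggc
Cry2, chr2:92434070-92434319, minus strand: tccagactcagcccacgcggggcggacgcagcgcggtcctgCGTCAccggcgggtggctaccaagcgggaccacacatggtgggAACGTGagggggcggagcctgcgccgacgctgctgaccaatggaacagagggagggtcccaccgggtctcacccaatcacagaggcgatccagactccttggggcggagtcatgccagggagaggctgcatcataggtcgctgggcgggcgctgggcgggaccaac

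Ciart held 3 canonical E-boxes, at -116, -58 and -44 from the start (each counted by its first base, with -1 the base before the start), where 0.0925% of 27025 genes held 3 or more. One or more canonical E-boxes were found in Ciart, Per1, Cry1 and Bhlhe41, that is 4 of the 6 members with a window, against 8.09% of all genes. Cry2 held the variant CACGTT on the minus strand at -166, and 5.44% of all genes held this variant. Cry1 held both forms, the variant on the minus strand at -79 and the canonical E-box at -60. Per1 held the canonical E-box at -166 of its first start and the CRE core at both starts, at -246 and -132. The CRE core was also found in Cry1 at -8 and on the minus strand of Cry2 at -209. It was the most common of the motifs searched, in 23% of all genes, and the full palindrome TGACGTCA was in none of the members' windows and in 2.03% of all genes. Per3 held the D-box TTATGTAA at -205 and again at -158, where 1.23% of all genes held TTATGTAA or TTACGTAA at all and 0.0296% held 2 or more. The ROR element AGGTCA was found in Per1 only among the members, on the minus strand at -137 of the first start, and in 18.1% of all genes. A match shows that the letters are present and is no measurement of binding.

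**Figure D1:**
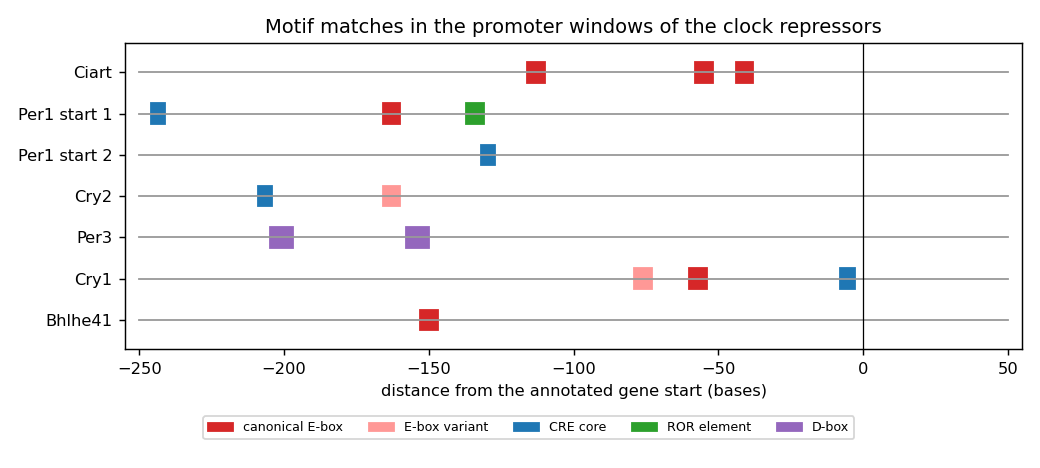
Positions of motif matches on either strand in the 7 promoter windows, in bases from the annotated start (vertical line at 0). Red boxes are canonical E-boxes, pink boxes the E-box variant, blue boxes the CRE core, green boxes the ROR element and violet boxes the D-box. Ciart carries 3 canonical E-boxes between -116 and -39.

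A probe was counted as detected on an array when its deposited intensity exceeded the noise limit of that array, taken as the 99th percentile of the size of all values below 0 on that array, which lay between 9.2 and 14 units. Of the 14 probes, 9 were above the limit on all 6 arrays, 1 on 1 array and 4 on none. The 9 probes belong to 5 genes: Per1 (2 probes), Per2 (2), Cry2 (1), Ciart (3) and Bhlhe40 (1). No probe passed through 1 time point alone. Cry1 was measured by a single probe (ILMN_2618668) that had intensities of -7.3, -0.3 and -11.5 on the 4 h arrays and -3, -6.7 and 1.3 on the 16 h arrays, and Bhlhe41 by a single probe (ILMN_2759227) between -2.1 and 4.7, so both were not detected at either time. The single probe of Per3 (ILMN_1257393) read 10.7, -0.4 and 4.7 on the 4 h arrays and 18.2, 7.4 and 3 on the 16 h arrays, above the limit only in 16 h replicate 1. No change of these 3 genes is interpreted. The third probe of Per2 (ILMN_1258523) and the second of Cry2 (ILMN_1256483) lay above the limit on no array, between -8 and 7.3 and between -6.4 and 2.1, although other probes of the same genes were detected, so an undetected probe does not show that a transcript is missing.

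**Figure D2:**
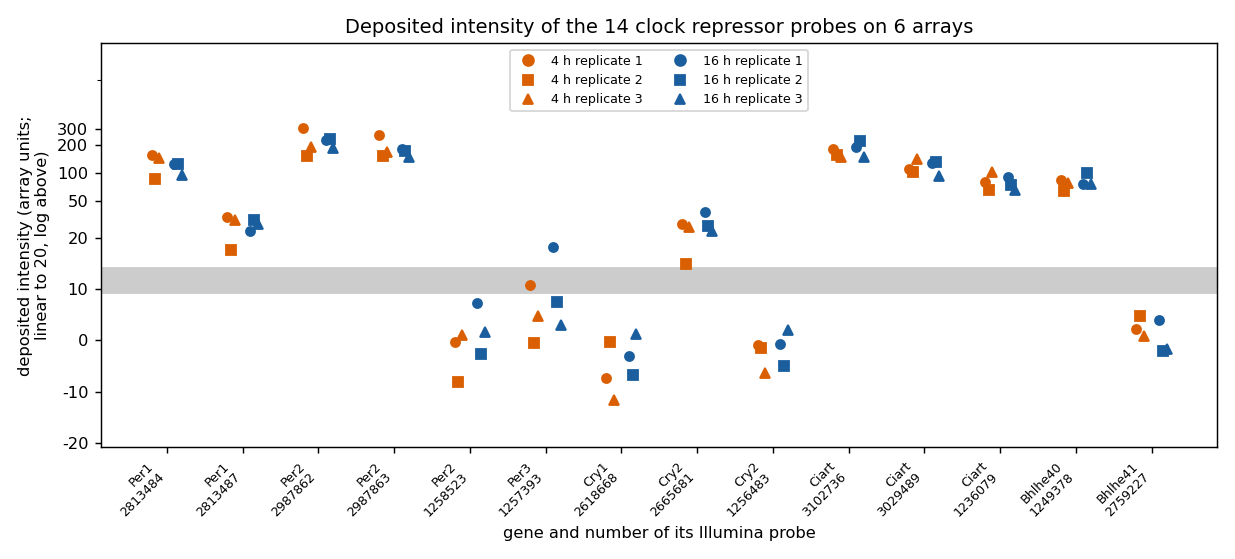
Deposited intensity (vertical axis, linear up to 20 units and logarithmic above) of all 14 probes on each of the 6 arrays, with orange points for 4 h, blue points for 16 h and the range of the noise limits as a grey band. The 9 probes of Per1, Per2, Cry2, Ciart and Bhlhe40 that lie above the band do so on every array, and the points of the time points overlap for each of them.

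The arrays themselves differed in brightness. The mean deposited intensity of the 4 h arrays was 322 ± 31.3 and that of the 16 h arrays 236 ± 17.0 (SD, n = 3 each), and 98.2% of the 14941 probes detected on all arrays had a higher mean at 4 h. Changes are therefore given after background correction and quantile normalization, as log2 intensity at 4 h minus 16 h, which sets a probe against the rest of its array, tested with limma and adjusted over all 45281 probes. Probes for 18S ribosomal RNA and for Actb separated the arrays in another way. The mean 18S intensity was between 437 and 2004 in 4 h replicates 1 and 3 and 16 h replicate 1, and between 49.0 and 146 in the other arrays, and the Actb probe had 5353 to 8961 and 719 to 1064 in the same sets of arrays. Of 15 L-cell markers 12 were detected on 3 or more arrays, including Gcg, Chga, Chgb, Isl1, Nkx2-2 and Insm1. Pcsk1 and Pyy, which too mark L-cells, were among those not detected. The summed deposited intensity of the list was between 40016 and 48316 on the 4 h and between 25388 and 31072 on the 16 h arrays. After normalization 10 of the 12 detected markers had a change above 0, with a median of 0.13 and none called by limma. Gcg, which encodes proglucagon, had 0.35 (SE 0.082, limma adjusted p = 0.461), and the range was from -0.35 (Neurod1) to 0.77 (Insl5). The part of this in the members' changes was not tested. Of the markers of other cells with a probe, 1 of 6 for fibroblasts (Col1a1), 1 of 7 for enterocytes and goblet cells (Tff3) and 0 of 5 for leukocytes were detected, with changes of -0.06 for Col1a1 and -0.26 for Tff3. Tff3 was bright, with deposited means of 765 at 4 h and 647 at 16 h, and Col1a1 was dim (27.8 and 20.9).

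All 9 detected probes of the clock repressors had a negative change, between -0.55 and -0.20 on the log2 scale, and for each of them every 4 h array lay below every 16 h array. Among all 17366 probes detected on 3 or more arrays, 48.7% had a change below 0 and 5.33% had every 4 h array below every 16 h array. Taking for each gene its probe with the highest mean normalized intensity, the median change of the 5 genes was -0.41, beside 0.0044 for all detected probes. No member passed the adjusted threshold of 0.05 in limma, which called 4 probes in either direction (0.00883% of all probes) and 2 lower at 4 h (0.00442% of all and 0.0115% of detected probes). At an unadjusted p under 0.05, all 9 detected member probes had a negative change in limma, against 4.83% of detected probes. That count was 0 of 9 after median scaling and 0 of 9 without normalization between arrays. RNA of the whole culture was measured, so fewer cells that express a gene and less RNA per cell cannot be told apart.

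**Figure D3:**
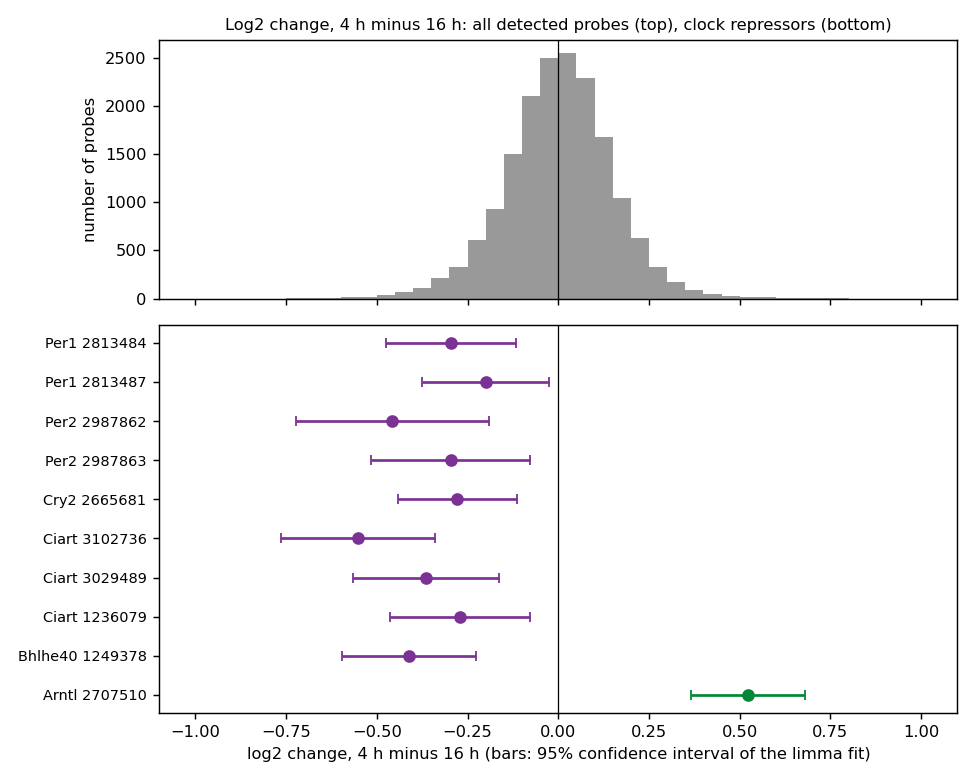
Top, number of detected probes (3 or more arrays, 17366 in all) by log2 change, 4 h minus 16 h, in bins of 0.05, with the few probes beyond the ends of the axis not drawn. Bottom, the change of the 9 detected clock repressor probes (violet) and of Arntl (green) with 95% confidence intervals from limma, not adjusted for the number of probes. The violet intervals lie below 0 and the interval of Arntl lies above it.

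Ciart, the BMAL1-binding repressor, had the most negative change of the members in the main setting. Its brightest probe (ILMN_3102736) had deposited intensities of 182.9, 156.8 and 146.8 on the 4 h arrays and 187.9, 222.9 and 146.8 on the 16 h arrays. After normalization its log2 intensities were 7.63, 7.79 and 7.48 on the 4 h arrays and 8.15, 8.30 and 8.11 on the 16 h arrays. The time points overlapped on the deposited scale and were separated by more than the spread of either group after normalization. The means were 7.63 ± 0.15 and 8.19 ± 0.10 (SD, n = 3 each), which is a log2 change of -0.55 (SE of 0.094, 95% interval -0.77 to -0.34, limma adjusted p = 0.217), and 30 of the 17366 detected probes had a more negative change. The other probes of Ciart had changes of -0.37 (ILMN_3029489, SE 0.089, limma adjusted p = 0.498) and -0.27 (ILMN_1236079, SE 0.085, limma adjusted p = 0.729). All 3 probes had the same direction in this setting, with the dimmest nearest to 0. The brightest probe had -0.75 without background correction, where Cry2 had -0.94. It had -0.21 after median scaling and -0.12 without normalization between arrays, where the other probes of Ciart were above 0.

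Per2, which the study used as the antiphase partner of Arntl, had deposited intensities of 305.3, 153.1 and 191 on the 4 h arrays and 226.7, 232.2 and 184.9 on the 16 h arrays at its brightest probe (ILMN_2987862). The normalized log2 values were 8.20, 7.77 and 7.74 on the 4 h arrays and 8.36, 8.35 and 8.37 on the 16 h arrays. The 16 h arrays were nearly equal, whereas 4 h replicate 1 stood above the other 4 h arrays and close to the 16 h arrays. The means were 7.90 ± 0.26 and 8.36 ± 0.01 (SD, n = 3 each), with a log2 change of -0.46 (SE 0.12, 95% interval -0.72 to -0.19, limma adjusted p = 0.537). Without 4 h replicate 1 the change was -0.61 (limma adjusted p = 0.194), the most negative value over the settings. Leaving out another array brought it as near to 0 as -0.37. After median scaling it was -0.10, and without normalization between arrays -0.0072. In the main setting a further probe (ILMN_2987863) gave -0.30 (SE 0.097, limma adjusted p = 0.744), with 4 h replicate 1 again the highest of the 4 h arrays.

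Per1, the member with the CRE core at both starts, had 154.8, 84.9 and 143.4 on the 4 h arrays and 123.9, 126.1 and 95 on the 16 h arrays at its brightest probe (ILMN_2813484). Normalized log2 values were 7.46, 7.24 and 7.46 on the 4 h arrays and 7.69, 7.71 and 7.65 on the 16 h arrays. Here 4 h replicate 2 was the lowest array, and the others of that time were equal to 2 decimals. The log2 change was -0.30 (SE 0.080, 95% interval -0.48 to -0.12, limma adjusted p = 0.583). The dimmer probe (ILMN_2813487, deposited means of 27.1 and 27.6) had a change of -0.20 (SE 0.077, limma adjusted p = 0.873). With this processing it was the smallest of the detected members. Without background correction the dimmer probe had -0.64 and the brightest probe of Per1 -0.45, so this order depends on the correction setting.

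Of the cryptochromes, which are the main direct repressors of the activators, Cry2 was the one detected. Its probe (ILMN_2665681) was dim, with deposited intensities of 28.3, 14.9 and 25.7 on the 4 h arrays and 37.8, 26.8 and 23.3 on the 16 h arrays. Normalized log2 values were 6.36, 6.29 and 6.39 on the 4 h arrays and 6.73, 6.56 and 6.59 on the 16 h arrays, so the groups were close but did not overlap. The log2 change was -0.28 (SE 0.073, 95% interval -0.44 to -0.11, limma adjusted p = 0.558). An offset of 50 units is added during background correction, and with an offset of 16 the change of Cry2 was -0.45 (limma adjusted p = 0.810). Without background correction, with no offset and values under 1 set to 1, it was -0.94 (limma adjusted p = 0.455), the most negative of the detected members in that setting. The change of Cry2 was nearer to no change after median scaling (-0.14, limma adjusted p = 0.452) and without normalization between arrays (-0.05, limma adjusted p = 0.756).

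Bhlhe40, the detected member of the DEC pair, had 82.9, 64.3 and 78.4 on the 4 h arrays and 76.1, 98.9 and 76 on the 16 h arrays (ILMN_1249378). Its normalized log2 values were 6.94, 7.02 and 6.96 on the 4 h arrays and 7.23, 7.47 and 7.44 on the 16 h arrays. The 4 h arrays were tight, and 16 h replicate 1 was the lowest of its group. The means were 6.97 ± 0.04 and 7.38 ± 0.13 (SD, n = 3 each), with a log2 change of -0.41 (SE 0.082, 95% interval -0.60 to -0.23, limma adjusted p = 0.323). The probes named STRA13, a name that Bhlhe40 has shared with another gene, were not counted as members.

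**Figure D4:**
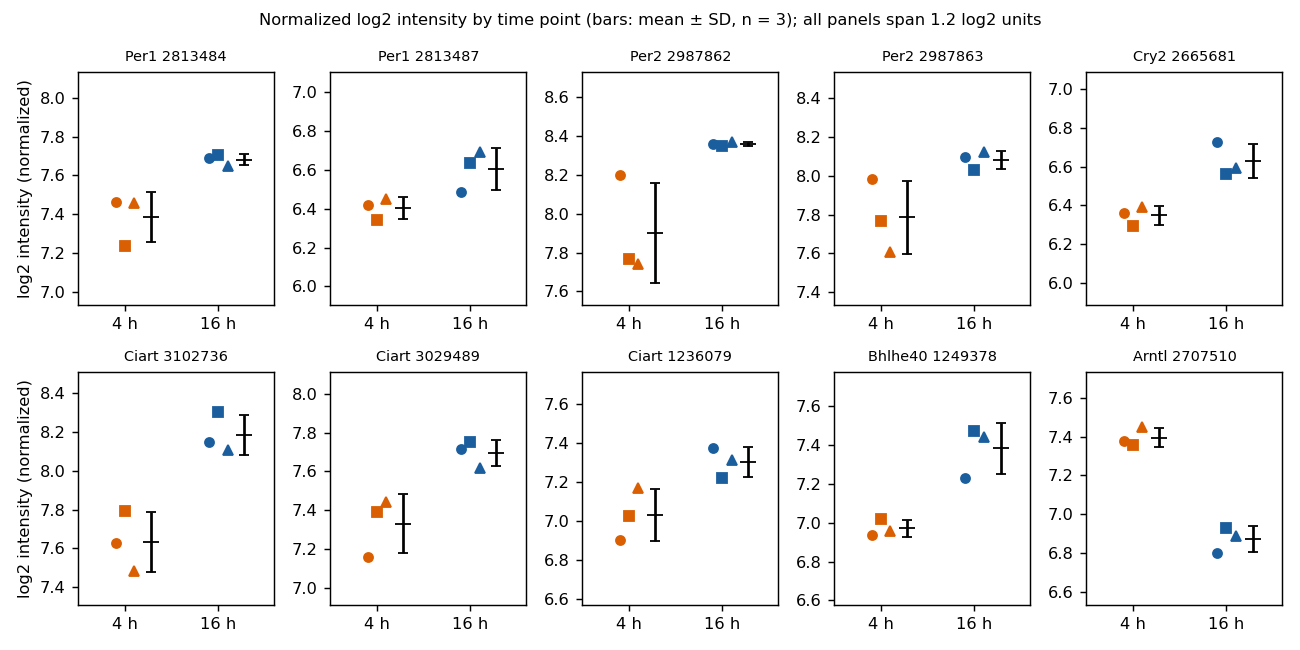
Normalized log2 intensity of the 9 detected clock repressor probes and of Arntl on each array (orange, 4 h; blue, 16 h; circle, square and triangle for replicates 1, 2 and 3), with black bars for mean ± SD (n = 3). In each repressor panel the orange points lie below the blue ones, and in the Arntl panel they lie above.

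The members were then compared with each other. Between the brightest probes of the 5 detected genes, 10 pairs were formed, and the difference of their changes was at most 0.27 (Cry2 against Ciart, exact two-sided permutation test over arrays, p = 0.2, Benjamini-Hochberg p = 0.571). The within-array differences of the time points overlapped for each of the 10 pairs. With 3 arrays against 3 the smallest p this test can give is 0.1, so the order of the changes from Ciart to Cry2 is not resolved.

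Because the changes depend on making the arrays comparable, the position of each member within its own array was also examined, as log2 of the deposited intensity minus the median log2 of the 14941 probes detected on all arrays. This measure uses no background correction, and centers each array on its own median in place of quantile normalization. The 4 h arrays lay below the 16 h arrays for all 9 member probes, against 6.33% of these 14941 probes. The difference was between -0.95 (Cry2) and -0.41 (Per2, ILMN_2987863). Ciart had positions of -0.39, -0.17 and -0.63 on the 4 h arrays and 0.30, 0.53 and 0.24 on the 16 h arrays at its brightest probe, with no overlap. For each of the 9 probes the exact two-sided permutation test gave p = 0.1, the smallest possible value (Benjamini-Hochberg p = 0.1 over 9). On the deposited scale itself, the groups overlapped for all 9 probes. The mean at 4 h was not higher than at 16 h for 4 of the 9, against 1.81% of the 14941 probes.

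Arntl, whose protein the members repress, had the opposite direction, at 0.52 on the log2 scale (SE 0.069, limma adjusted p = 0.138). Arntl was called in the settings that kept the brightness of the 4 h arrays, at 0.87 without normalization between arrays and 0.78 after median scaling (limma adjusted p = 0.0309 in both), and had 0.95 without background correction (limma adjusted p = 0.156). The paper differs here: it reports a larger change of Arntl, significantly higher at 4 h, and no gene significantly lower. The reason for the difference was not tested. The within-array log2 ratio of Arntl to each member, from deposited values, was higher on every 4 h array than on every 16 h array for all 9 probes. The same separation was found against 89.2% of the other probes detected on all arrays, so it is not particular to the members. The difference in the ratio was between 1.37 (Per2, ILMN_2987863) and 1.91 (Cry2) for the members, beside a median of 0.999 over the detected probes (exact two-sided permutation test, p = 0.1 for each of the 9, Benjamini-Hochberg p = 0.1). Each difference is that of the within-array position with its sign turned, plus the same amount from Arntl. The ratio is therefore no separate test of the members. For Bhlhe40 the log2 ratio was 0.75 ± 0.12 on the 4 h and -0.94 ± 0.089 on the 16 h arrays (SD, n = 3 each), a 3.22-fold difference in the quotient of the 2 intensities.

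Arrays with high and with low 18S signal were found at both time points. Among the 3 arrays with high 18S signal (2 at 4 h and 1 at 16 h) the changes of the 9 probes were between -0.60 and -0.05, and among the 3 with low signal (1 at 4 h and 2 at 16 h) between -0.59 and -0.24. Since no 4 h array overlapped a 16 h array for any of the 9 probes, the sign within each set was given beforehand. Each set has only 1 array at 1 of the times, so the sizes have no full spread and were not tested. With this separation as a block in limma the median change of the 5 genes was -0.36, and no member was called.

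The members' direction in relation to the other probes held in each normalization, but the sign of the change did not. With no between-array normalization the median change of the 5 genes was -0.05 while that of detected probes was 0.36, and 5 of the 9 member probes had a change above 0. With median scaling the medians were -0.14 and 0.27, and 2 of the 9 probes were above 0. In both settings all 9 lay below the median of detected probes. Under the other normalization, background and variance settings all 9 probes were below 0. Leaving out 1 array could not turn a sign where the groups did not overlap. No setting brought a member past the adjusted threshold.

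**Figure D5:**
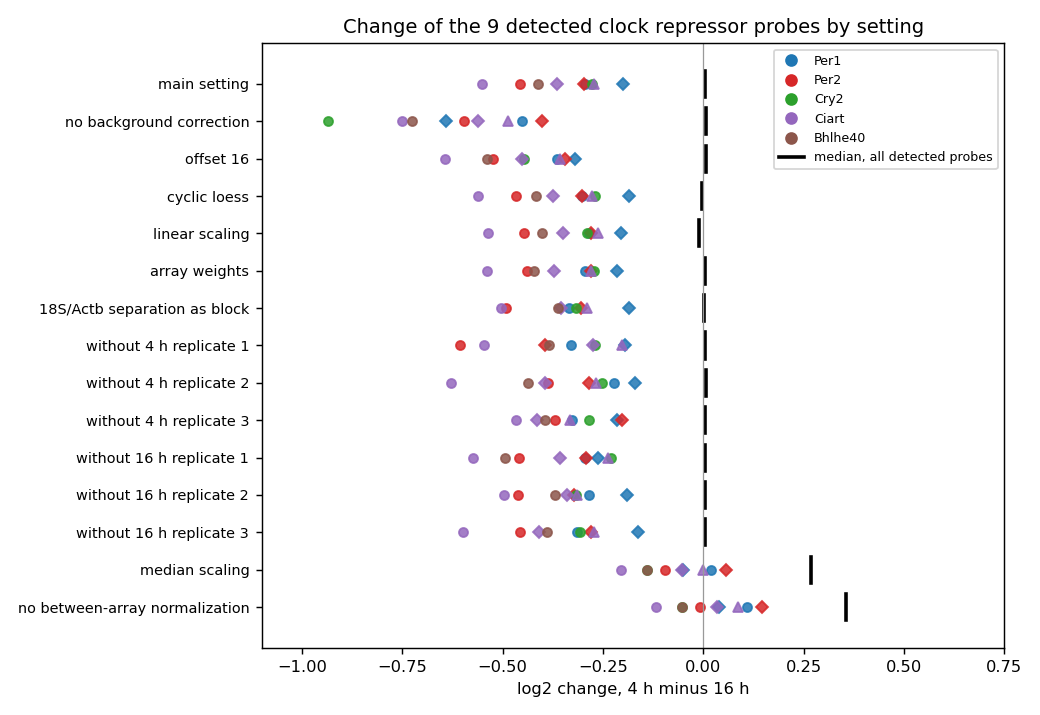
Log2 change (4 h minus 16 h) of the 9 detected clock repressor probes under the main setting and 14 of the alternatives; colors mark genes, circle, diamond and triangle mark a gene's probes in order of brightness, and black ticks mark the median of all detected probes. The members lie left of the black tick in each row, and around 0 in the bottom rows, where the brightness of the 4 h arrays was left wholly or partly in the values.

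Other clock genes, from lists chosen by their roles, were set beside the members. Of the transcription factors that are read out through the same loop, Tef passed the adjusted threshold (log2 change -0.82, SE 0.077, limma adjusted p = 0.0338), a call that was lost in 13 of 18 other settings. Its change was -0.37 with no between-array normalization, -0.46 with median scaling and between -1.099 and -0.77 in the other settings. Dbp, which like Tef is a PAR bZIP activator, had -0.48 (SE 0.11, limma adjusted p = 0.395), and Nr1d2, which encodes the repressor REV-ERBβ, had -0.49 (SE 0.11, limma adjusted p = 0.405). Nr1d1 was above the noise limit on 5 arrays, with a change of -0.12 (SE 0.078, limma adjusted p = 0.948). It had -0.53 without background correction and between -0.18 and -0.07 without 1 array. Clock, the partner of Arntl, had 0.22 (SE 0.10, limma adjusted p = 0.919), and 0.086 when its detected probes were averaged. With no between-array normalization, where the median of detected probes was 0.36, the change was 0.71 for Clock, -0.02 for Nr1d2 and 0.0011 for Dbp.

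The genes for enzymes that modify PER and CRY proteins had changes centered near 0. Of 23 kinases, phosphatases, ubiquitin ligases and deubiquitinases, 18 were detected, with none called by limma and 1, lower at 4 h, with an unadjusted p under 0.05. Their median change was -0.02. The single gene was Usp2, a deubiquitinase that is itself rhythmic in many tissues (-0.47, SE 0.14, limma adjusted p = 0.677). Its change was -0.81 without background correction, -0.19 after median scaling and -0.10 without normalization between arrays. Next in order of p were Ddb1 (-0.20) and Ppp1cc (-0.17), and the changes of the list reached 0.23. Without 1 array Ppp1cc had between -0.26 and -0.10. Csnk1d and Csnk1e, the kinases that mark PER for degradation, had -0.02 (SE 0.098) and -0.08 (SE 0.081). Of 16 partners of the PER and CRY complexes, 15 had a probe and were detected, and none was called or had an unadjusted p under 0.05 in limma, with a median of 0.01. Sin3a (-0.16) and Dhx9 (-0.23) were among those with the smallest p, and had -0.07 and -0.05 without 16 h replicate 2. Of 10 HES and HEY genes, repressors of the same bHLH-Orange class as the DEC proteins, 3 were detected: Hes6 (0.21), Hes1 (-0.13) and Hey1 (0.01). None of these was called, and Hes6 alone had an unadjusted p under 0.05 (limma adjusted p = 0.892). The average of the detected Hes6 probes was 0.068. Hes1 had -0.36 without background correction and between -0.21 and -0.04 without 1 array. With no between-array normalization Hes6 (0.69) and Hey1 (0.44) were called (limma adjusted p = 0.042 and 0.0466).

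Because Per1 answers to cAMP, 15 cAMP/CREB targets were listed as well. Of these 9 were detected, with a median change of -0.0092, none called by limma and 1 (Nr4a2, -0.23, limma adjusted p = 0.741) with an unadjusted p under 0.05. The most positive change was that of Pde4d, a phosphodiesterase that breaks down cAMP (0.18, SE 0.081, limma adjusted p = 0.919). Of the immediate early genes in the list, Egr1 had 0.16 (SE 0.073) and Fos -0.0092 (SE 0.092).

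Finally, the probes whose profile over the 6 arrays was most like that of Per2 (ILMN_2987862) were listed, by Pearson's r of normalized log2 intensity over the 14941 probes detected on all arrays. They were LOC381941 (r = 0.992), Rnf167 (0.978), Rbm26 (0.977), Txnip (0.972) and Dhx57 (0.971), with changes between -0.24 and -0.16. The second detected probe of Per2 (ILMN_2987863) came in position 6, with r = 0.968. Among the other members r with Per2 was between 0.477 (Ciart, ILMN_1236079) and 0.856 (Per1, ILMN_2813484). The profiles rest on 6 arrays in 2 groups, so they largely share the contrast between the times and the height of 4 h replicate 1.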

How the data were processed

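Total RNA of 6 mGLUTag samples was hybridized by the authors to a mouse Illumina BeadChip. The deposited table of the authors gives a linear intensity for each probe in each sample, labelled as not normalized, and holds values below 0; scanner software, slide and detection p-values are not given in the sources used here. Background correction (normexp, offset 50), quantile normalization and log2 transformation were done with limma 3.58.1 under R 4.3.3. All 45281 probes were fitted with lmFit and eBayes, by time; the Benjamini-Hochberg adjustment covered all probes, with a threshold of 0.05, and p-values are two-sided. The procedure was tested on simulated data. Symbols were matched to RefSeq (GRCm38.p6): 27760 probes by symbol, 7994 by a synonym, 9527 not at all. Where a gene had several probes, that with the highest mean stood for it, and the precision is limited by the number of arrays. The members and lists were chosen with earlier results of these data known. Named genes were the members, Arntl, the called or 3 smallest-p detected genes of each clock list, and the 5 probes most like Per2. A gene that this rule names and a marker gene are not reported here. Further genes of the cAMP/CREB list, Csnk1d, Csnk1e and the pairs of members were chosen after values were seen. Detected means above the noise limit on at least 3 arrays.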

Additional observations from a re-analysis of the deposited data

How the results depend on the processing

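Over all probes, the main setting gave 2 higher and 2 lower at 4 h. No background correction (values under 1 set to 1) gave 19 higher and 10 lower, no between-array normalization 2308 higher and 0 lower (unadjusted p under 0.05: 12062 probes), median scaling 832 and 0 (8638), cyclic loess 0 higher, trend and robust variance 1 higher and 0 lower, and an offset of 16 and the filter at the noise limit 0 and 0 in limma, where the unadjusted p was under 0.05 for 2486 and 1028 probes. Leaving out 1 array gave between 0 and 0 in each direction, and limma gave 1849 to 3219 probes an unadjusted p under 0.05; fewer samples were then fitted. No setting called a clock repressor. Arntl was called after median scaling and without normalization between arrays, and Hes6, Hey1 and Ppp1cc (limma adjusted p = 0.0499) with no between-array normalization.

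The median change of the 5 detected repressor genes was -0.41 in the main setting, -0.73 without background correction, -0.52 with an offset of 16, -0.14 with median scaling and -0.053 with no between-array normalization, and between -0.46 and -0.37 without 1 array. An offset of 16 adds a smaller constant to all values, the setting without background correction changes the correction, the offset and the floor together, and the last pair of settings keeps the brightness of the 4 h arrays. With no between-array normalization the sign turned for Per1 (0.11 and 0.039), Per2 ILMN_2987863 (0.14), Ciart ILMN_3029489 (0.035) and ILMN_1236079 (0.087), the undetected Cry2 probe (0.033), Nr1d1 (0.058), Dbp (0.0011), Ddb1 (0.29), Ppp1cc (0.32), Sin3a (0.28), Dhx9 (0.22) and Hes1 (0.11), all below the median of 0.36 of detected probes. With median scaling it turned for Per1 (0.020), Per2 ILMN_2987863 (0.056), Ddb1 (0.20), Ppp1cc (0.23), Sin3a (0.19), Dhx9 (0.13) and Hes1 (0.022), all below the median of 0.27. Hey1 turned with array weights (-0.012) and lay between -0.042 and 0.10 without 1 array. The probes of Cry1 (-0.13 to 0.0023) and Cry2 (-0.078 to 0.0077) that were above the noise limit on no array also crossed 0 without 1 array, and these values describe background. The cause of the other differences was not tested. Within arrays, all 9 positions and all 9 ratios to Arntl kept their direction with normexp-corrected values.

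The labels do not say whether arrays with the same replicate number belong together. Over detected probes, their deviations from the group mean had correlations of 0.24, 0.17 and -0.47 for replicates 1, 2 and 3. Both arrays of replicate 1 had high 18S signal, both of replicate 2 low, and those of replicate 3 differed. These correlations therefore cannot decide whether the arrays are paired. With a replicate block limma called 0 higher and 0 lower, with 2489 probes under 0.05 unadjusted, and no repressor. Tef kept its call with array weights, linear scaling, cyclic loess, the 18S block and probes averaged by gene, and lost it in the other 13 settings (limma adjusted p from 0.0514, trend and robust variance, to 0.5003, without 16 h replicate 3).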
